A study of Homo sapiens with 15 samples.

Results

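The genes described here are 10 regulators of the integrated stress response, ATF4, ATF3, ATF5, DDIT3, CEBPB, TRIB3, CHAC1, SESN2, DDIT4 and PPP1R15A, chosen by symbol from a table of 37787 genes. All 10 were found in the table, and all 10 were among the 13868 genes that passed the filter on low counts. These genes, and the gene lists used below, were chosen with earlier results of these data known. Their counts of calls, set beside the shares of all genes, are therefore descriptions and not an independent test. RNA was measured in HGrC1, a human granulosa cell line, in 15 libraries from 5 transfection conditions with 3 libraries each. Vectors received empty plasmids, FOXL2WT received SMAD3 with wild-type FOXL2, and FOXL2C134W received SMAD3 with the FOXL2 form that carries the substitution found in adult granulosa cell tumors. FOXL2WT + FOXO1 and FOXL2C134W + FOXO1 received the same plasmids and Foxo13A, a constitutively active FOXO1. The 4 conditions with a FOXL2 plasmid thus all carried SMAD3, and Vectors is the only condition without it. All cells were at passage 14, were transfected by lipid reagent for 4 hours in serum-free medium, and were then kept in serum-free medium for 24 hours. Transfection was transient in 1 cell line, so a larger change in fewer cells and a smaller change in every cell cannot be told apart in these bulk samples. The labels do not say whether replicates A, B and C came from separate cultures on separate days, so the p-values measure only the spread between these libraries.

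The integrated stress response starts when one of the eIF2 kinases (PERK, GCN2, PKR or HRI) phosphorylates the translation factor eIF2. Overall protein synthesis then falls, while translation of a few mRNAs with upstream open reading frames, above all that of ATF4, increases. ATF4 is a bZIP transcription factor that binds composite C/EBP-ATF elements and turns on genes for amino acid uptake, amino acid synthesis and one-carbon metabolism, together with a second layer of regulators such as ATF3, DDIT3 (CHOP), TRIB3, CHAC1 and SESN2. PPP1R15A (GADD34) brings a phosphatase to eIF2 and closes the loop. In granulosa cells the pathway responds to nutrient supply, hormone production and folding load in the endoplasmic reticulum. ATF4 and ATF5 are controlled mainly at translation, so their mRNA levels report only part of their activity.

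Libraries held between 14962245 and 25339094 counts. FOXL2 read 8.28 to 9.54 CPM (counts divided by the TMM-scaled library size) in Vectors, 554 to 566 in FOXL2WT, 121 to 175 in FOXL2C134W, 374 to 401 in FOXL2WT + FOXO1 and 139 to 176 in FOXL2C134W + FOXO1. SMAD3 read 240 to 263 CPM in Vectors, 2595 to 2889 in FOXL2WT, 812 to 885 in FOXL2C134W, 957 to 976 in FOXL2WT + FOXO1 and 379 to 411 in FOXL2C134W + FOXO1. FOXO1 read 11.6 to 13.8 CPM without its plasmid, 104 to 132 in FOXL2WT + FOXO1 and 39.1 to 47.2 in FOXL2C134W + FOXO1. Each library thus matched its label as to which plasmids it received, although gene counts do not tell the forms of FOXL2 apart, but RNA of the transfected genes differed several fold between conditions that were meant to differ only in the FOXL2 form or in FOXO1, and the part of that difference in any result below was not tested. Of 12 granulosa markers, 7 were at or above 1 CPM everywhere, among them GATA4, FST and KRT18. FSHR had 0 counts in all libraries, CYP19A1 and INHA at most 4 and AMHR2 at most 7, and AMH read 0.74 to 1.94 CPM. Theca markers had at most 3 counts each. Of the leukocyte markers, PTPRC had at most 5 counts, and CD68, which other cells also express, read 88.7 to 116.6 CPM. Of the endothelial markers, CDH5 read 2.2 to 4.6 CPM and PECAM1 0.67 to 2.31 CPM. Of the surface epithelium markers, EPCAM read 4.78 to 7.72 CPM and MUC16 had 0 counts in all libraries. HSD17B1, counted among the 7 granulosa markers, was no higher than EPCAM in range, at 2.31 to 5.03 CPM. The libraries FOXL2C134W A and FOXL2WT + FOXO1 A stood apart from the other libraries of their conditions (chi-square per degree of freedom over genes of 7.44 and 8.39, and of 6.34 and 6.36, against 2.54 and 2.77 for the remaining pairs), and calls that changed without them are given beside each result. They were not the only ones. Libraries B and C of FOXL2C134W + FOXO1 differed by 6.88, against 4.03 and 4.81 for its other pairs. Vectors A, which enters every comparison with Vectors, gave 4.00 and 3.55, against 2.20 for the remaining pair.

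Promoter sequence from RefSeq (build GRCh38.p14, 250 bases before the annotated start) was read for all 10 genes, because several of them moved together across conditions. The letters searched on both strands were TGATGNAA, the core of the C/EBP-ATF element, TGACGTCA, the cyclic AMP response element, TGACTCA, the AP-1 site, TGTTTAC, a forkhead site, and GTCTAGAC, the SMAD palindrome. Of 27305 promoters of this length, 3.19% held the first, 1.77% the second, 4.16% the third, 2.98% the forkhead letters and 0.176% the SMAD palindrome. Among the 10 windows 3 matches were found, 1 each in CHAC1, PPP1R15A and DDIT3, and none of them was a forkhead or SMAD match. The stretches are shown with the match in capitals. The CHAC1 match starts 209 bases before the start on the opposite strand (whole stretch chr15:40953251-40953280, plus strand), within the bounds of another CHAC1 transcript that starts further upstream. The PPP1R15A match starts 58 bases before the start (whole stretch chr19:48872352-48872381, plus strand), also within the bounds of a transcript that starts further upstream. The DDIT3 match starts 238 bases before the start (whole stretch chr12:57520737-57520766, minus strand), within the bounds of the DDIT3 transcript that starts farthest upstream and takes most of its reads.
CHAC1, C/EBP-ATF core: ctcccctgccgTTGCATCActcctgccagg
PPP1R15A, cyclic AMP response element: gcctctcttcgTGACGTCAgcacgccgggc
DDIT3, AP-1: gcgcgcgcgcaTGACTCAcccacctcctcc

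Whole windows are printed for SESN2 (chr1:28259268-28259517, plus strand) and CEBPB (chr20:50190580-50190829, plus strand). Both rose in FOXL2WT, and both windows end at the start of their only annotated transcript. No capitals appear because neither window held any of the letters searched.
SESN2: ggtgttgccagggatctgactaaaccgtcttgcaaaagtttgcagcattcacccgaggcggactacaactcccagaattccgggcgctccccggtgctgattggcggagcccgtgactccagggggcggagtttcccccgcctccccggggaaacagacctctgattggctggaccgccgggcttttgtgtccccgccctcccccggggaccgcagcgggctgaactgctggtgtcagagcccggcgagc
CEBPB: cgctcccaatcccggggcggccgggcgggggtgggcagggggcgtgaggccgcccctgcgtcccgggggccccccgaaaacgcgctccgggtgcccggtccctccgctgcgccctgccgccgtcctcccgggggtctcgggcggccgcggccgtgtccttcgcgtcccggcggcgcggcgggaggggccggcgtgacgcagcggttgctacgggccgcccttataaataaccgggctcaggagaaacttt
A match is a description of the letters only, and its absence says nothing about binding. For ATF3, DDIT3 and TRIB3 the nearest RefSeq start lay 6257, 1220 and 535 bases from the start of the transcript that took most reads, so those windows do not cover the main start used here.

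The levels of the 10 genes differed widely before any comparison. Per length, in TPM (which divides reads by transcript length and sums to the same total in each library) in Vectors, ATF4 stood highest at 380 ± 9.7 (SD, n = 3) and DDIT4 followed at 98.8 ± 1.6. PPP1R15A at 62.2 ± 2.6, TRIB3 at 60.6 ± 4.1 and DDIT3 at 59.5 ± 4.6 were within their spread of each other. ATF3 at 27.5 ± 3.3, CEBPB at 24.8 ± 2.0, ATF5 at 21.1 ± 1.0, CHAC1 at 16.7 ± 2.8 and SESN2 at 8.56 ± 0.36 were lower. In the edgeR quasi-likelihood test with Benjamini-Hochberg adjustment, 9 of the 10 genes differed somewhere among the 5 conditions, against 16.4% of all genes tested, and ATF5 did not (adjusted p = 0.461). Without 1 library at a time, DDIT3 (adjusted p = 0.0366) lost this call in 9 of 15 fits, and CEBPB (adjusted p = 0.0163) lost it without Vectors A (0.0692) or Vectors B (0.0603).

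**Figure D1:**
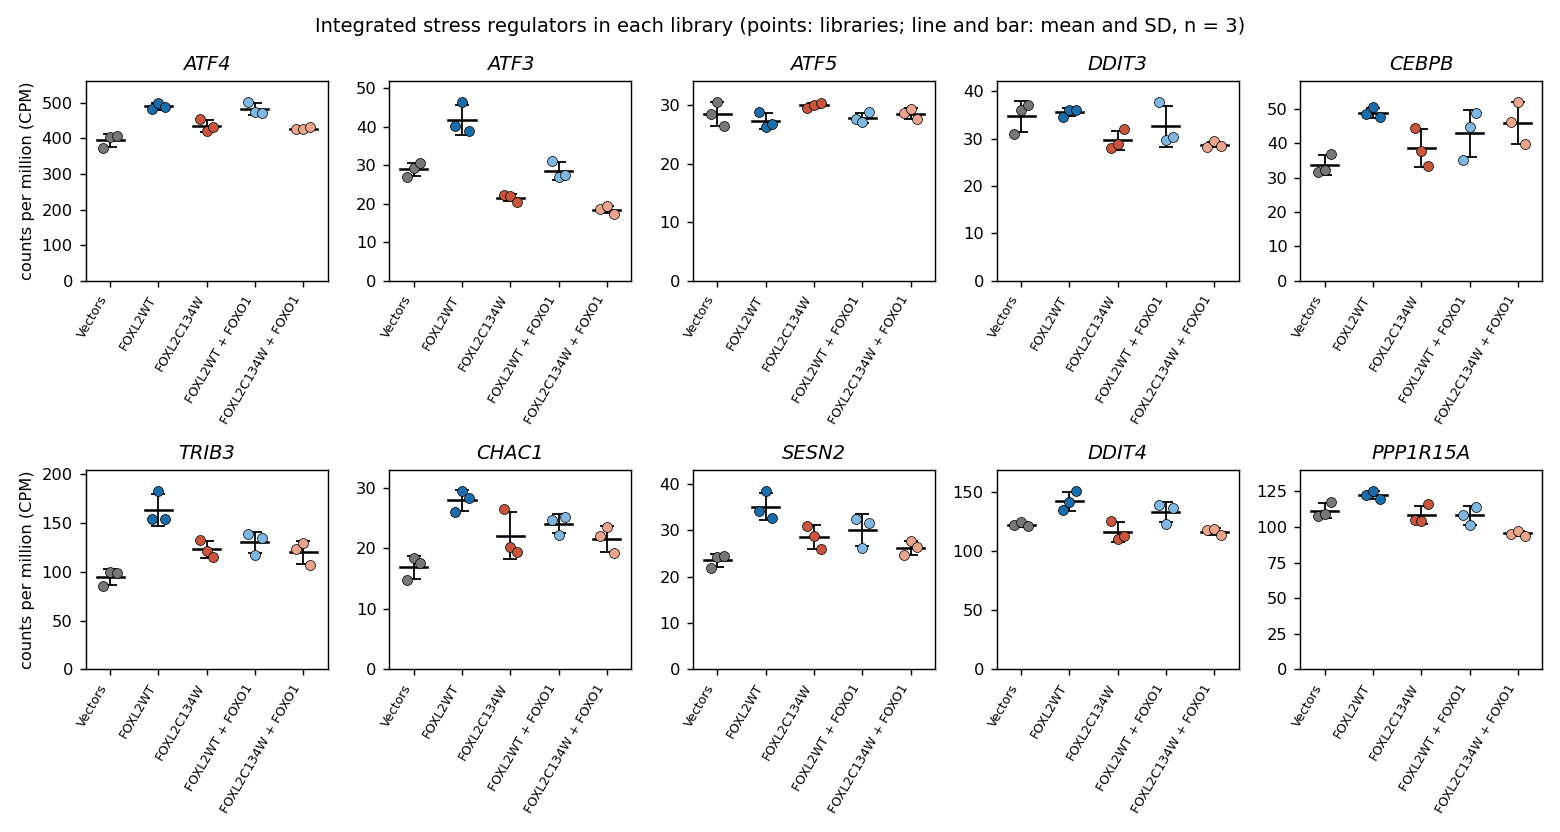
CPM of the 10 genes in each library, by condition, on linear axes that start at 0. Points are libraries, and the line and bar are the mean and SD of 3. ATF3 is the gene whose FOXL2WT libraries (38.9 to 46.2 CPM) and FOXL2C134W libraries (20.5 to 22.1 CPM) lie on opposite sides of Vectors (27.0 to 30.4 CPM), while TRIB3, CHAC1 and SESN2 are lowest in Vectors and highest in FOXL2WT.

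Expression of wild-type FOXL2 with SMAD3 raised 7 of the 10 genes above Vectors and lowered none, against 2.46% of all genes called higher and 3.61% called lower. The median log2 fold change of the 10 genes was 0.42, against 0.0025 over all genes tested. TRIB3, a pseudokinase that restrains AKT and ATF4 itself (chr20:362835-397559), read 85.2, 100.2 and 99.0 CPM in Vectors and 154, 182 and 154 CPM in FOXL2WT. All FOXL2WT libraries thus lay above all Vectors libraries, a log2 fold change of 0.78 ± 0.085 (SE; adjusted p = 2.41e-05). CHAC1, which degrades glutathione (chr15:40952962-40956512), read 14.8, 18.3 and 17.6 CPM in Vectors and 26.1, 29.5 and 28.3 in FOXL2WT. Its log2 fold change was 0.72 ± 0.11 (adjusted p = 0.000662), with no overlap. SESN2, a leucine sensor that holds back mTORC1 (chr1:28259518-28282491), read 21.8, 24.3 and 24.3 CPM in Vectors and 34.2, 38.4 and 32.7 in FOXL2WT. The groups did not overlap, and the log2 fold change was 0.57 ± 0.088 (adjusted p = 0.000662).

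The transcription factors changed less evenly. ATF4 (chr22:39519695-39522683) read 373, 405 and 405 CPM in Vectors and 481, 499 and 488 in FOXL2WT. Although the step was small, a log2 fold change of 0.31 ± 0.041, it was outside the spread of both groups (adjusted p = 0.000112). ATF3, a bZIP factor that mostly represses as a homodimer (chr1:212565334-212620777), read 27.0, 29.3 and 30.4 CPM in Vectors and between 38.9 and 46.2 CPM in the FOXL2WT libraries. The difference was 0.52 ± 0.074 on the log2 scale (adjusted p = 0.000274). This ATF3 call was lost when the counts were corrected for the average length of the transcripts, with a log2 fold change of 0.27 and an adjusted p of 0.497 in DESeq2, the lowest and highest adjusted p over 9 alternatives being 1e-09 and 0.497. CEBPB, a C/EBP factor that pairs with ATF4 (chr20:50190830-50192668), read 31.8, 32.2 and 37.0 CPM in Vectors and 48.5, 50.6 and 47.8 in FOXL2WT. It rose by 0.54 ± 0.11 (adjusted p = 0.00856), a call that was lost without Vectors A (0.50, adjusted p = 0.064).

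DDIT4 (REDD1), another brake on mTORC1 (chr10:72273919-72276036), read 122, 124 and 121 CPM in Vectors and 134, 141 and 150 in FOXL2WT. Its rise was 0.22 ± 0.056 (adjusted p = 0.0267). The call was lost without FOXL2WT B or C (adjusted p = 0.0863 and 0.118) and without Vectors A, B or C (0.108, 0.0561 and 0.0857). The value itself stayed between 0.17 and 0.26 in these fits, which hold fewer libraries and called 305 to 662 of all genes instead of 842. PPP1R15A (chr19:48872212-48876059) read 107, 109 and 117 CPM in Vectors and 122, 125 and 120 in FOXL2WT, which did not pass the test (0.14 ± 0.051, adjusted p = 0.134) except in the fit of the compared groups alone (0.0407). DDIT3, the proapoptotic factor CHOP (chr12:57516588-57521737), read 31.0, 36.1 and 37.1 CPM in Vectors and 34.7, 36.2 and 36.1 in FOXL2WT. DDIT3 lies across from MBD6 on the other strand, and whether counting used strand is not given in the sources used here. Its libraries overlapped (0.04 ± 0.082, adjusted p = 0.844). ATF5, a mitochondrial stress factor (chr19:49928702-49933935), read 28.5, 30.5 and 26.4 CPM in Vectors and 28.8, 26.2 and 26.8 in FOXL2WT, and also overlapped (-0.06 ± 0.062, adjusted p = 0.646).

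**Figure D2:**
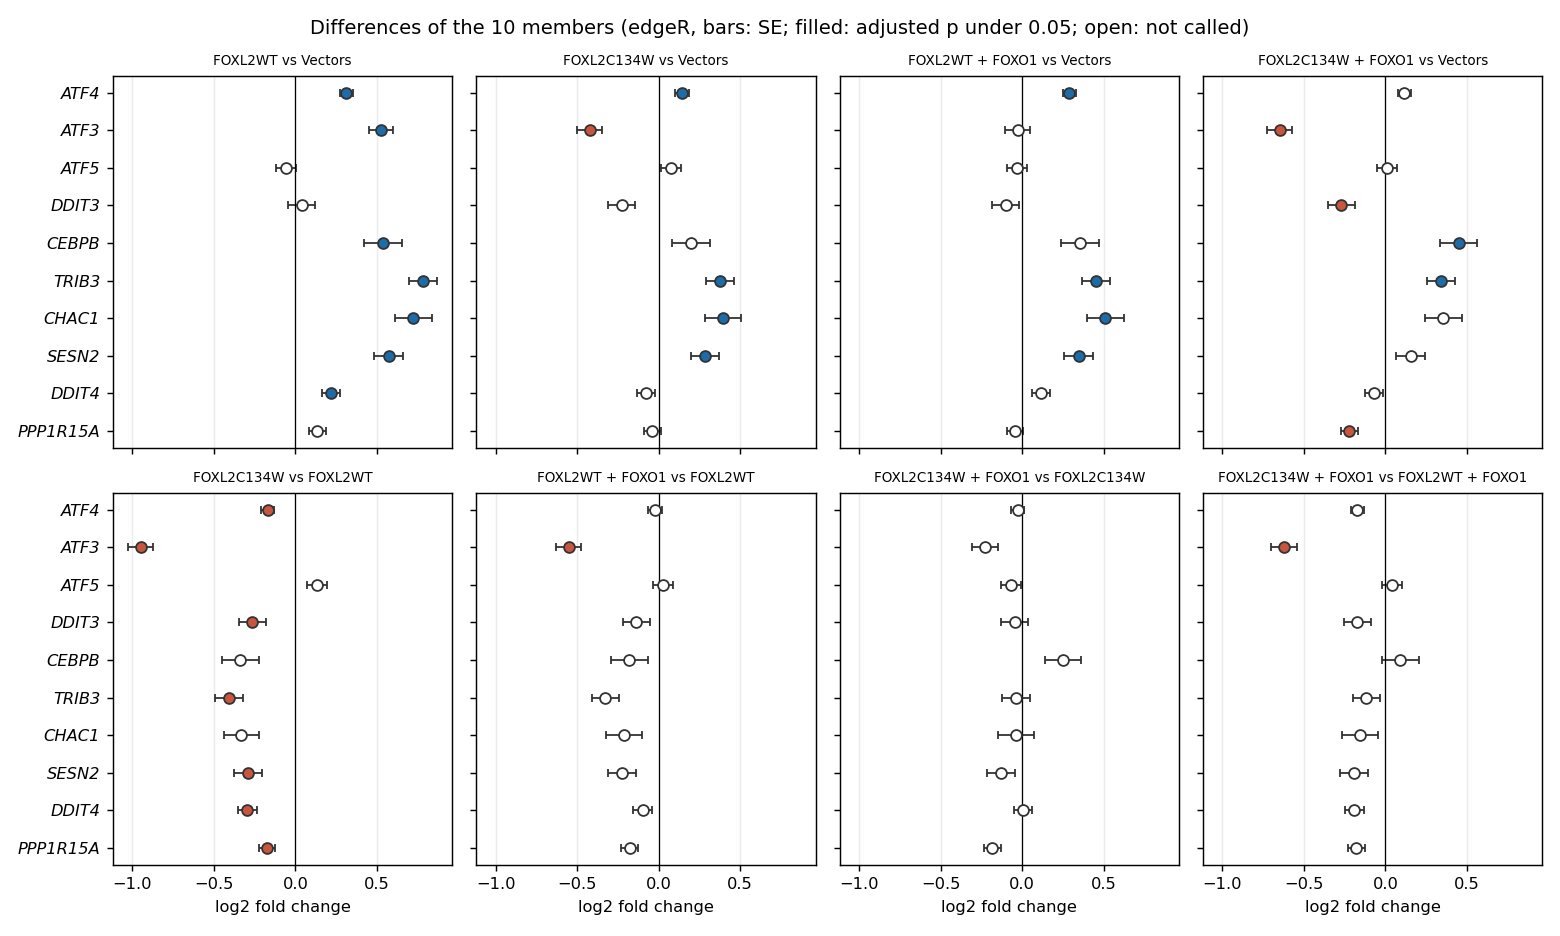
Log2 fold changes of the 10 genes in 8 comparisons, the first-named condition relative to the second, from the edgeR fit over all 15 libraries. Bars are standard errors, filled points passed an adjusted p of 0.05 and open points did not. In FOXL2WT against Vectors 7 filled points lie to the right, and in FOXL2C134W against FOXL2WT 7 filled points lie to the left, with ATF3 farthest out.

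FOXL2C134W with SMAD3 raised 4 of the 10 genes above Vectors and lowered 1, ATF3, against 7.48% of all genes called higher and 7.24% called lower. The median log2 fold change of the 10 genes was 0.11, against 0.0043 over all genes. TRIB3 read 132, 121 and 115 CPM in FOXL2C134W, all above Vectors (0.38 ± 0.085, adjusted p = 0.00556). CHAC1 read 26.6, 20.3 and 19.4 CPM, with replicate A well above the other libraries (0.39 ± 0.11, adjusted p = 0.0225). The CHAC1 call was lost without FOXL2C134W A (0.24, adjusted p = 0.116), without Vectors A (0.31, 0.108), in the fit of the compared groups alone (0.39, 0.0618) and with transcript length offsets (0.34, 0.198). ATF4 read 454, 420 and 431 CPM, all above Vectors (0.14 ± 0.040, adjusted p = 0.0225), and lost its call without FOXL2C134W A (0.12, 0.0686), without Vectors A (0.11, 0.0948) and in the fit of the compared groups alone (0.14, 0.0658). SESN2 read 31.0, 28.8 and 25.8 CPM (0.28 ± 0.088, adjusted p = 0.0368). It lost its call without FOXL2C134W A (0.23, 0.116) or B (0.28, 0.0885), without Vectors A (0.24, 0.13), B (0.31, 0.0662) or C (0.32, 0.0595), and with gene length offsets (0.0684) or transcript length offsets (0.0858). Without FOXL2C134W A, 2 of the 5 calls were thus left, TRIB3 and ATF3.

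ATF3 moved the other way. It read 22.1, 22.0 and 20.5 CPM in FOXL2C134W, below every Vectors library, and its log2 fold change of -0.42 ± 0.077 (adjusted p = 0.00101) passed under all 9 alternatives and in all 6 fits that left out 1 library. With transcript length offsets it was -0.50 (adjusted p = 0.0484), the highest adjusted p of those 9. DDIT3 read 28.1 to 32.0 CPM and overlapped with Vectors (-0.23 ± 0.082, adjusted p = 0.0715), and passed without Vectors A (-0.30, 0.026). CEBPB read 44.6, 37.7 and 33.5 CPM (0.20 ± 0.11, adjusted p = 0.283), DDIT4 125, 110 and 112 CPM (-0.08 ± 0.056, adjusted p = 0.405), PPP1R15A 105, 104 and 116 CPM (-0.04 ± 0.051, adjusted p = 0.685) and ATF5 29.5 to 30.3 CPM (0.08 ± 0.060, adjusted p = 0.462). None of these 4 stood apart from Vectors.

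The comparison of the tumor-associated form with the wild type, which the study was built around, called 7 of the 10 genes lower in FOXL2C134W and none higher. Over all genes, 4.12% were called lower and 7.13% higher, and the median of the 10 genes was -0.29, against -0.012. ATF3 showed the largest difference of the 10 genes, -0.95 ± 0.076 on the log2 scale (adjusted p = 5.79e-07), and fell by 48.2%. Its highest FOXL2C134W library, 22.1 CPM, lay well below its lowest FOXL2WT library, 38.9 CPM, and the call held under all 9 alternatives (-0.95 to -0.78, highest adjusted p = 0.000402) and in all 6 fits without a library (-0.99 to -0.87). TRIB3 (-0.41 ± 0.084, adjusted p = 0.00408) and DDIT4 (-0.29 ± 0.056, adjusted p = 0.00215) also fell without overlap between groups. ATF4 fell by 0.17 ± 0.040 (adjusted p = 0.0106), a call lost without FOXL2C134W B (-0.14, 0.081) or FOXL2WT B (-0.15, 0.0672).

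The remaining calls were close to the threshold. SESN2 (-0.29 ± 0.087, adjusted p = 0.0372) lost its call without FOXL2C134W B (-0.29, 0.107) or C (-0.22, 0.176), without FOXL2WT A (-0.31, 0.0741) or B (-0.22, 0.201), and with transcript length offsets (0.0966). PPP1R15A (-0.17 ± 0.051, adjusted p = 0.0345) lost it without FOXL2C134W A (-0.15, 0.093) or B (-0.14, 0.181), without FOXL2WT A (-0.17, 0.0891), B (-0.15, 0.152) or C (-0.18, 0.0671), and with transcript length offsets (0.101). DDIT3 (-0.26 ± 0.083, adjusted p = 0.0462) lost it without FOXL2C134W A (-0.22, 0.111) or B (-0.24, 0.16), without FOXL2WT A (-0.28, 0.0817), B (-0.25, 0.15) or C (-0.25, 0.132), and under 5 of 9 alternatives, with adjusted p up to 0.125. CHAC1 (-0.33 ± 0.11, adjusted p = 0.056) and CEBPB (-0.34 ± 0.11, adjusted p = 0.0612) did not pass, but passed in DESeq2 (0.0464 and 0.0408) and without FOXL2C134W A (-0.48, 0.00257 and -0.45, 0.0128). ATF5 was the only gene of the 10 with a positive value (0.13 ± 0.061, adjusted p = 0.181). FOXL2 and SMAD3 RNA fell in this comparison too (log2 fold changes of -1.93 and -1.72), so the form of FOXL2 and the amount of transfected RNA cannot be told apart.

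FOXO1 together with wild-type FOXL2 left 4 of the 10 genes above Vectors and none below (1.41% of all genes called higher, 2.37% lower), with a median of 0.20 against 0.0034 over all genes. ATF4 read 501, 474 and 472 CPM (0.29 ± 0.041, adjusted p = 0.000382) and TRIB3 138, 118 and 135 CPM (0.46 ± 0.086, adjusted p = 0.00468). Both kept their call in all 6 fits without a library. CHAC1 read 24.8, 22.3 and 25.3 CPM (0.51 ± 0.11, adjusted p = 0.0146), and its call was lost without FOXL2WT + FOXO1 C (0.47, 0.0686) or Vectors A (0.42, 0.0997). SESN2 read 32.3, 26.1 and 31.6 CPM (0.35 ± 0.089, adjusted p = 0.0344). Its call was lost without FOXL2WT + FOXO1 A (0.30, 0.131) or C (0.30, 0.137), without Vectors A (0.30, 0.178), B (0.37, 0.0678) or C (0.37, 0.0676), and with transcript length offsets (0.0685). CEBPB, at 35.3, 44.7 and 48.7 CPM, overlapped with Vectors (0.36 ± 0.12, adjusted p = 0.101) but passed without FOXL2WT + FOXO1 A (0.47, 0.0285). ATF3, at 31.1, 27.0 and 27.4 CPM, also overlapped with Vectors (-0.03 ± 0.077, adjusted p = 0.908). DDIT4 (123 to 139 CPM, 0.12 ± 0.056, adjusted p = 0.287), DDIT3 (29.8 to 37.7 CPM, -0.10 ± 0.083, adjusted p = 0.599), PPP1R15A (101 to 114 CPM, -0.04 ± 0.052, adjusted p = 0.739) and ATF5 (27.1 to 28.8 CPM, -0.03 ± 0.062, adjusted p = 0.864) overlapped with it as well.

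FOXO1 together with FOXL2C134W gave a mixed picture, with 2 of the 10 genes above Vectors and 3 below (4.17% of all genes called higher, 5.16% lower) and a median of 0.06. ATF3 reached its lowest level of the study there, 18.6, 19.3 and 17.4 CPM (-0.65 ± 0.078 against Vectors, adjusted p = 3.41e-05), and the call held in all 15 other fits of this comparison. PPP1R15A read 95.3, 97.4 and 93.4 CPM, below every other library of the study (-0.22 ± 0.051, adjusted p = 0.00961), and lost its call without Vectors C (-0.18, 0.0647). DDIT3 read 28.3, 29.5 and 28.5 CPM (-0.27 ± 0.082, adjusted p = 0.0452), a call lost without any one library but Vectors A (adjusted p up to 0.184) and with transcript length offsets (0.118).

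CEBPB and TRIB3 were the 2 genes above Vectors. CEBPB read 46.3, 51.9 and 39.7 CPM (0.45 ± 0.11, adjusted p = 0.017), and its call was lost without FOXL2C134W + FOXO1 A (0.44, 0.0511) or B (0.35, 0.0935) and without Vectors A (0.41, 0.0842) or B (0.42, 0.0692). TRIB3 read 123, 130 and 107 CPM (0.34 ± 0.085, adjusted p = 0.0167), and its call was lost without FOXL2C134W + FOXO1 A (0.32, 0.0599) or B (0.28, 0.0796) or Vectors A (0.27, 0.101). CHAC1 read 22.1, 23.5 and 19.3 CPM and narrowly missed the threshold (0.36 ± 0.11, adjusted p = 0.0534). It passed in DESeq2 (adjusted p = 0.0376) and without FOXL2C134W + FOXO1 C (0.44, 0.0347). ATF4 read 426, 426 and 430 CPM, above every Vectors library (0.12 ± 0.040), without passing (adjusted p = 0.0802), and passed in DESeq2 (0.0346) and with gene length offsets (0.0131). SESN2 (24.6 to 27.6 CPM, 0.15 ± 0.089, adjusted p = 0.314), DDIT4 (113 to 118 CPM, -0.07 ± 0.056, adjusted p = 0.478) and ATF5 (27.6 to 29.3 CPM, 0.01 ± 0.060, adjusted p = 0.961) did not pass either. The 4 comparisons above share the Vectors libraries and are not independent of each other.

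Adding FOXO1 to wild-type FOXL2 changed 1 of the 10 genes, ATF3, which was lower (0.0361% of all genes called lower, 0.0144% higher). The log2 fold change was -0.55 ± 0.076 (adjusted p = 0.00403) and no library overlapped. The call was lost without FOXL2WT + FOXO1 B (-0.51, adjusted p = 0.067) and with transcript length offsets (-0.46, 0.258). Of the other genes, TRIB3 had the largest value (-0.33 ± 0.085, adjusted p = 0.202), which passed in DESeq2 (adjusted p = 0.034), and 9 of the 10 values were negative. SMAD3 RNA was also lower after FOXO1 was added (-1.51), as was FOXL2 RNA (-0.55), and their part in the ATF3 difference was not tested.

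Adding FOXO1 to FOXL2C134W changed none of the 10 genes in edgeR, where 0.707% of all genes were called lower and 0.00721% higher. At an unadjusted p under 0.05 there were 3 of the 10, beside 1557 of all 13868 genes, and DESeq2 called 1 of the 10. ATF3 had a value of -0.23 ± 0.080 (adjusted p = 0.249), PPP1R15A -0.18 ± 0.051 (adjusted p = 0.114) and CEBPB 0.25 ± 0.11 (adjusted p = 0.407). SMAD3 RNA was lower after FOXO1 was added (-1.11), while FOXL2 RNA was not called (0.05 ± 0.096). Between the 2 conditions with FOXO1, 1 of the 10 genes differed, again ATF3, lower with FOXL2C134W (0.108% of all genes called lower, 0.0361% higher). Its difference was -0.62 ± 0.080 (adjusted p = 0.00065), and its call was lost with transcript length offsets (-0.58, 0.101). RNA of FOXO1 (-1.44), SMAD3 (-1.31) and FOXL2 (-1.33) was lower with FOXL2C134W in this comparison too, and their part in the ATF3 difference was not tested. ATF4 had a value of -0.17 ± 0.040 there (adjusted p = 0.116), which passed in DESeq2 (0.00283), as did DDIT4 and PPP1R15A (both 0.0495). DESeq2 gave no adjusted p for 6 of the 10 genes there, ATF3 among them.

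None of the 10 genes passed edgeR's interaction test, which asks whether the effect of FOXO1 differs between the FOXL2 forms, against 1.25% of all genes with a lower and 0.137% with a higher value. At an unadjusted p under 0.05 there were 3 of the 10, beside 1736 of all 13868 genes. DESeq2 called 0, while with a filter of at least 1 count in any sample edgeR called TRIB3 (0.29, adjusted p = 0.00363) and CEBPB (0.43, adjusted p = 0.000461). For ATF3 the interaction was 0.33 with an adjusted p of 0.179, and for TRIB3 it was 0.29 ± 0.12 with an adjusted p of 0.305. ATF3 therefore passed in one form and not in the other, without a difference between the forms that passed the test.

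ATF3 is the gene here with the most annotated transcripts, 10 of 11 with reads. The transcript ATF3-202, whose start lies at base 212608761 of chromosome 1, took 76.7 ± 5.1% of its reads in Vectors, 80.1 ± 5.4% in FOXL2WT, 63.4 ± 13% in FOXL2C134W, 67.3 ± 7.1% in FOXL2WT + FOXO1 and 67.2 ± 7.5% in FOXL2C134W + FOXO1 (SD, n = 3). Single libraries ranged from 73.1 to 82.6% in Vectors, 76.2 to 86.2% in FOXL2WT and 55.2 to 78.3% in FOXL2C134W, so these groups overlapped, and no test was run on the shares. The average length of ATF3 transcripts, weighted by the TPM of all of them, was 1235 bases in Vectors and 1469 in FOXL2WT. It did not follow the ATF3-202 share alone, since FOXL2C134W, with a lower share than Vectors, had a mean of 1341 bases. Within FOXL2C134W it ranged from 1058 to 1622 bases. A correction for that length therefore removes part of the FOXL2WT difference and adds spread between replicates. Counted alone, ATF3-202 read 19.7 to 25.1 CPM in Vectors, 30.3 to 39.9 in FOXL2WT and 11.3 to 17.3 in FOXL2C134W. These 3 ranges did not overlap, and no test was run on them.

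**Figure D3:**
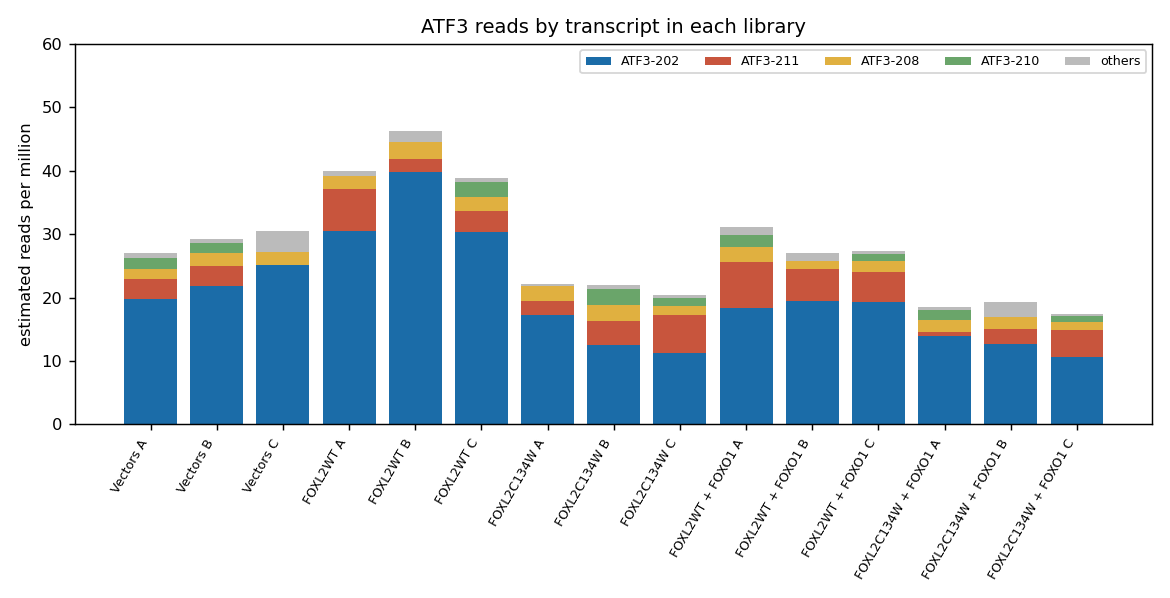
ATF3 reads in each library, in CPM, split by the transcript to which salmon assigned them (colours; the 4 with most reads and all others). The ATF3-202 part is largest in the FOXL2WT libraries (30.3 to 39.9) and smallest in those of FOXL2C134W + FOXO1 (10.6 to 14.0) and FOXL2C134W (11.3 to 17.3).

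Other genes of the pathway were read from 8 lists. Against Vectors, 2.46% of all genes were called higher and 3.61% lower in FOXL2WT, and 7.48% and 7.24% in FOXL2C134W. The shares were 1.41% and 2.37% in FOXL2WT + FOXO1, and 4.17% and 5.16% in FOXL2C134W + FOXO1. The 29 metabolic ATF4 targets were enzymes and carriers that supply amino acids and one-carbon units, aminoacyl-tRNA synthetases such as AARS1, and the tRNA exporter XPOT. Of these 29, 26 rose in FOXL2WT and none fell (median 0.41). In FOXL2C134W 22 rose and 1 fell (median 0.28), in FOXL2WT + FOXO1 23 rose and none fell (0.33), and in FOXL2C134W + FOXO1 21 rose and 1 fell (0.28). ASNS, the asparagine synthetase, went from 147 ± 11 CPM in Vectors to 245 ± 19 in FOXL2WT (0.74 ± 0.061, adjusted p = 1.62e-06) and 200 ± 9.8 in FOXL2C134W (0.45 ± 0.061, adjusted p = 7.81e-05). PSAT1, an enzyme of serine synthesis, went from 235 ± 17 CPM to 391 ± 29 and 328 ± 15. SLC1A4, a carrier of neutral amino acids, rose by 0.61 ± 0.068 in FOXL2WT. Between the forms, 10 of the 29 were lower in FOXL2C134W and none higher (median -0.13), where 4.12% of all genes were called lower and 7.13% higher. Those lower included ASNS (-0.29 ± 0.061), PSAT1 (-0.25 ± 0.058) and SHMT2, the mitochondrial serine hydroxymethyltransferase (-0.25 ± 0.048). The count between the forms depended on single libraries, at 3 lower without FOXL2WT B, 5 without FOXL2C134W B, 4 without FOXL2C134W C and 14 without FOXL2C134W A (then with 1 higher), while the median stayed between -0.17 and -0.11. Against Vectors the count higher lay between 23 and 26 in FOXL2WT and between 20 and 23 in FOXL2C134W when a library was left out.

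Of 14 secreted and stress targets of ATF4 or DDIT3 that were tested, 5 rose in FOXL2WT and none fell. They included EIF4EBP1, a translation inhibitor (0.50 ± 0.082), NUPR1, a stress-induced chromatin protein (0.48 ± 0.071), and STC2, a secreted glycoprotein (0.40 ± 0.042). In FOXL2C134W 4 rose and 2 fell, where 7.48% of all genes were called higher and 7.24% lower. The count higher was 3 without FOXL2C134W A or Vectors A, and the count lower was 1 without FOXL2C134W B or Vectors C and 4 without FOXL2C134W C. Against FOXL2WT 7 of the 14 were lower in FOXL2C134W and none higher, among them GDF15 (-0.34 ± 0.10), HERPUD1 (-0.28 ± 0.056) and KLHL24 (-0.48 ± 0.14). Leaving out any 1 library lowered the count of 7. It was 3 without FOXL2C134W B, FOXL2WT B or FOXL2WT C, 5 without FOXL2C134W A and 6 without FOXL2C134W C or FOXL2WT A. Of 25 bZIP partners and relatives, 4 rose and 1 fell in FOXL2WT, with CEBPG (0.38 ± 0.049) and JDP2 (0.36 ± 0.064) ahead. Over all genes 2.46% were called higher and 3.61% lower there, so the 1 lower was near the share of all genes. With 1 library left out, the count higher was 3 in every fit and the count lower 0 or 1. Against FOXL2WT, 8 of the 25 were lower and 2 higher in FOXL2C134W, including JUNB (-0.42 ± 0.091), MAFF (-0.34 ± 0.054) and CREBRF (-0.34 ± 0.077). Over all genes 4.12% were called lower and 7.13% higher, so the 2 higher were near the share of all genes. Leaving out 1 library gave 6 to 8 lower and 1 to 2 higher.

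The 15 genes of the other arms of the unfolded protein response, driven by XBP1 and ATF6, did not follow the ATF4 targets. In FOXL2WT 6 fell and none rose (median -0.14), and in FOXL2C134W again 6 fell and none rose (median -0.14). Over all genes, 3.61% were called lower and 2.46% higher in FOXL2WT, and 7.24% and 7.48% in FOXL2C134W. Leaving out 1 library gave 4 to 5 lower in FOXL2WT and 4 to 6 in FOXL2C134W, with 1 higher without FOXL2C134W A. With FOXO1 the counts were 5 and 0 for both forms, where 2.37% of all genes were called lower in FOXL2WT + FOXO1 and 5.16% in FOXL2C134W + FOXO1. CALR, the chaperone calreticulin, went from 1372 ± 40 CPM in Vectors to 1088 ± 39 in FOXL2WT (-0.34 ± 0.034, adjusted p = 1.28e-05) and 1139 ± 7.5 in FOXL2C134W. HSP90B1 (-0.35 ± 0.063) and PDIA4 (-0.29 ± 0.039) fell in FOXL2WT. PDIA4 (-0.28 ± 0.039) and HSPA5, the sensor chaperone BiP (-0.27 ± 0.035, adjusted p = 4.49e-05), fell in FOXL2C134W. Mean HSPA5 was also lower in FOXL2WT (1222 ± 29 CPM, against 1393 ± 13 in Vectors). Mean HSP90B1 was also lower in FOXL2C134W (1139 ± 92 CPM, against 1289 ± 48).

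The lists of the upstream machinery are read against the shares of all genes called higher, which were 2.46% in FOXL2WT, 7.48% in FOXL2C134W and 4.17% in FOXL2C134W + FOXO1 against Vectors and 7.13% in FOXL2C134W against FOXL2WT. None of 9 eIF2 kinases and their partners passed edgeR's test in FOXL2WT (median -0.01), and DESeq2 called 0. At an unadjusted p under 0.05 there were 0, beside 2878 of all 13868 genes. In FOXL2C134W 2 of the 9 passed, GCN1 (0.16 ± 0.046), which activates GCN2, and EIF2AK4, the kinase GCN2 (0.15 ± 0.047). That count was 0 without FOXL2C134W B or C, without Vectors B or C, or with gene length offsets, 1 without Vectors A, with a replicate block or with transcript length offsets, and 3 without FOXL2C134W A. Against FOXL2WT, EIF2AK2, the kinase PKR (0.23 ± 0.067), and EIF2AK4 (0.17 ± 0.047) were higher in FOXL2C134W. There the count of 2 was 0 without FOXL2WT B or C, without FOXL2C134W B or C, or with transcript length offsets, 1 without FOXL2WT A and 3 without FOXL2C134W A.

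Of 12 eIF2, eIF2B and phosphatase subunits, PPP1R15B (0.25 ± 0.039), the constitutive relative of PPP1R15A, and EIF2S2 (0.21 ± 0.040), the beta subunit of eIF2, rose in FOXL2WT, and the count was 2 in all 6 fits without a library as well. In FOXL2C134W PPP1R15B was called higher (0.14 ± 0.039) and PPP1CB, a catalytic subunit of the phosphatase, lower (-0.16 ± 0.042). Over all genes 7.48% were called higher and 7.24% lower there, so 1 of 12 in each direction was near the share of all genes. The count higher there was 2 without FOXL2C134W A and 0 in the other 5 fits without a library, and the count lower was 0 without Vectors A. In FOXL2C134W + FOXO1 3 were higher, EIF2S2 (0.20 ± 0.040), EIF2B3 (0.19 ± 0.050) and EIF2S3 (0.14 ± 0.035). This count was 1 without FOXL2C134W + FOXO1 A or C or Vectors A or C, 2 without Vectors B and 5 without FOXL2C134W + FOXO1 B.

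None of 10 mTORC1 brakes and sestrin partners tested passed edgeR's test in FOXL2WT, and DESeq2 called 1 lower. At an unadjusted p under 0.05 there were 2 of the 10, near the share of all genes (2878 of 13868). In FOXL2C134W TXNIP, an inhibitor of thioredoxin, fell (-0.45 ± 0.048) and NPRL3, a subunit of the GATOR1 complex that restrains mTORC1, rose (0.35 ± 0.094). With 7.24% of all genes called lower and 7.48% higher there, 1 of 10 in each direction was near the share of all genes. The count higher was 0 without FOXL2C134W B or Vectors B. None of 18 p53 targets passed edgeR's test in FOXL2WT, and DESeq2 called 0. At an unadjusted p under 0.05 there were 5 of the 18, beside 2878 of all 13868 genes. In FOXL2C134W 5 of the 18 fell and 1 rose, against 7.24% of all genes lower and 7.48% higher, with CCNG1 (-0.35 ± 0.047) and TP53INP1 (-0.40 ± 0.11) among those lower. The count lower was 2 without Vectors A or B and 3 without FOXL2C134W A or B, and the count higher was 0 in every fit without a library except that without FOXL2C134W A.

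**Figure D4:**
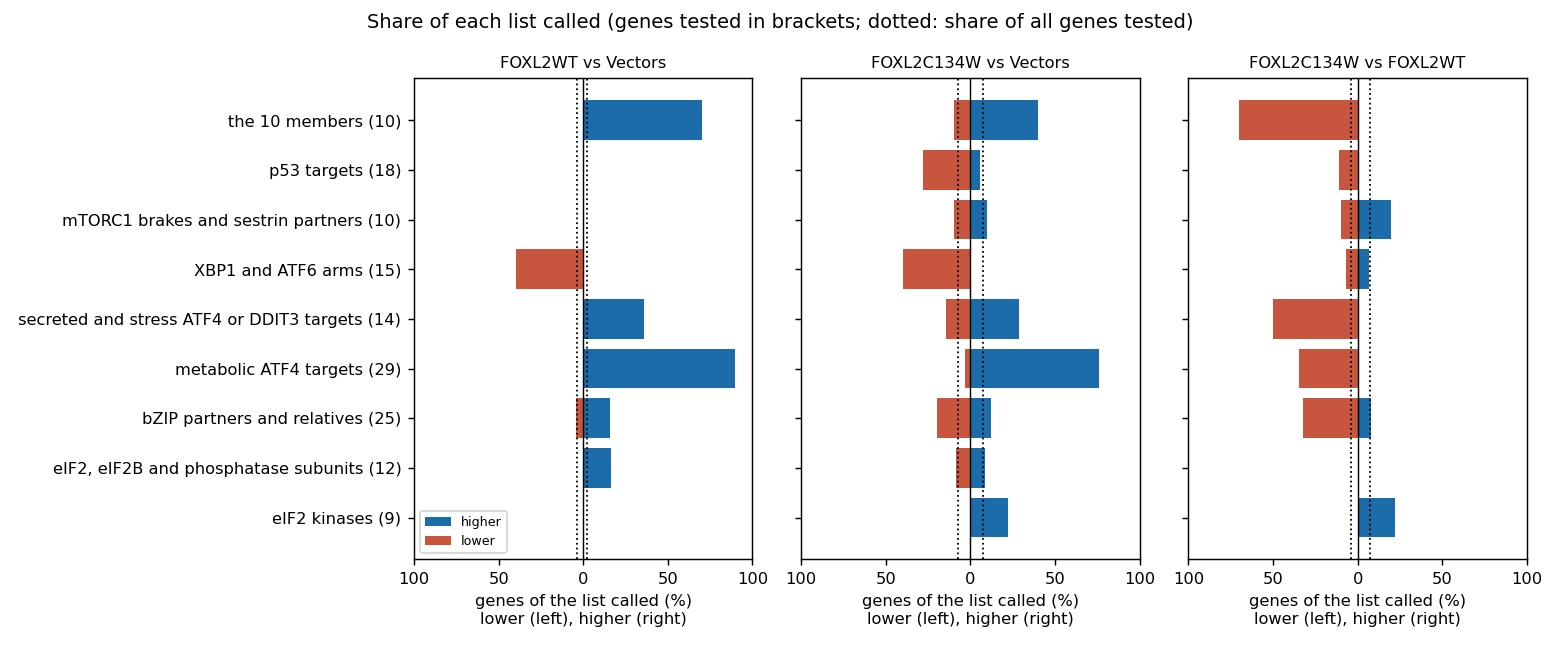
Share of each list called higher (right) or lower (left) in 3 comparisons, with the genes tested in brackets and dotted lines at the share of all genes tested. In FOXL2WT against Vectors 26 of 29 metabolic ATF4 targets were higher and 6 of 15 genes of the XBP1 and ATF6 arms were lower, and in FOXL2C134W against FOXL2WT 7 of the 10 members were lower.

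Across the 15 libraries, which share the conditions and the scaling, the genes correlated with each other to different degrees. TRIB3 correlated with CHAC1 (Pearson r = 0.96 of log2 CPM) and SESN2 (0.95), and ATF4 with CHAC1 (0.90), TRIB3 (0.88) and SESN2 (0.88). ATF3 was closest to PPP1R15A (0.84) and DDIT4 (0.82). DDIT4 also correlated with ATF4 (0.71), SESN2 (0.69) and CHAC1 (0.68), and ATF5 correlated negatively with all 9 others (-0.52 to -0.26). Outside the 10 genes, SLC3A2, the heavy chain of amino acid exchangers, was the gene most like TRIB3 (r = 0.98) and CHAC1 (0.98), and it was among the nearest 2 of SESN2 (0.94). PCK2, the mitochondrial phosphoenolpyruvate carboxykinase, was next for TRIB3 (0.96), and SHMT2 was near both CHAC1 (0.96) and ATF4 (0.95). ATF3 was most like RIT1 (0.95) and FAM53C (0.94), and FAM53C was also near PPP1R15A (0.83). DDIT4 was most like TRAF4 (0.92), CEBPB like HEBP1 (0.92) and DDIT3 like SAT2 (0.93). These are descriptions over 15 libraries, chosen as the highest of all genes tested.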

How the data were processed

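RNA of HGrC1 cells was sequenced as 75-bp single-end stranded mRNA libraries, and 15 libraries in 5 conditions were analysed. The authors quantified transcripts with Salmon 1.1.0 on hg38 (GRCh38) transcripts and deposited, without normalization, a table of estimated counts per gene and, for each sample, estimated counts, lengths and TPM per transcript. Conditions and replicate letters came from the labels. The members and gene lists were chosen with earlier results of these data known. Estimated counts were rounded to whole numbers and tested with edgeR 4.0.16 (filterByExpr, TMM, quasi-likelihood test, 1 term per condition over all 15 libraries, Benjamini-Hochberg threshold 0.05), leaving 13868 genes. Log2 CPM for correlations used a prior count of 2. Alternatives were DESeq2 1.42.0 with and without transcript length offsets, RLE size factors, other count filters (1 in any or 10 in every sample), only the compared groups, gene length offsets (lowess span 0.3), a replicate block, and each library left out. Named genes were the 10 members, the transfected genes, at most 3 called genes of each list per comparison, and for each member the 2 genes of highest Pearson r. Replicate pairs differed by more than sampling noise (chi-square per degree of freedom 2.20 to 8.39). Same-letter libraries did not deviate together (median r 0.0036 over 30 pairs, 2 above 0.1), so letters were not taken as pairs. Depth limits precision through counts of 339 to 11483 per member and library. Promoters are RefSeq GRCh38.p14, and gene positions are GENCODE 44 on GRCh38.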

Additional observations from a re-analysis of the deposited data

Results flagged for a closer look

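None of the 10 members was flagged. The change on adding FOXO1 differed between the FOXL2 forms for the 3 transfected genes, by the interaction term of edgeR (FOXL2C134W minus FOXL2WT): FOXL2 0.597 (adjusted p = 0.0333), SMAD3 0.408 (adjusted p = 0.0065) and FOXO1 -1.408 (adjusted p = 4.72e-05), on the log2 scale. RNA of the FOXO1 plasmid thus rose less beside FOXL2C134W, and the part of this in the member comparisons with FOXO1 was not tested.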

How the results depend on the processing

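Over the single members, 824 of 883 values under other settings and 655 of 750 values with 1 library left out kept their direction and their side of the threshold. With transcript length offsets in DESeq2 the number of members called became 3 for FOXL2C134W against Vectors, 4 for FOXL2C134W against FOXL2WT and 0 for FOXL2WT + FOXO1 against FOXL2WT. With DESeq2 it became 2 for FOXL2WT + FOXO1 against FOXL2WT, 1 for FOXL2C134W + FOXO1 against FOXL2C134W and 3 between the conditions with FOXO1, which were ATF4, DDIT4 and PPP1R15A. DESeq2 gave an adjusted p of NA for 7 member values, 6 of them in that last comparison (ATF3, ATF5, CEBPB, CHAC1, DDIT3 and SESN2) and CHAC1 in FOXL2WT + FOXO1 against FOXL2WT. These were left out. With at least 1 count in any sample it became 2, 2 and 3 for these, and 2 for the interaction. With the compared groups alone it became 3 for FOXL2C134W against Vectors. Leaving out 1 library gave 2 to 5 members for FOXL2C134W against Vectors, 2 to 4 for FOXL2WT + FOXO1 against Vectors, 2 to 5 for FOXL2C134W + FOXO1 against Vectors, 3 to 7 for FOXL2C134W against FOXL2WT and 0 to 1 for FOXL2WT + FOXO1 against FOXL2WT. The causes were not tested beyond the ATF3 transcript lengths given above.

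Some differences near 0 that passed in no fit changed sign: ATF5 in FOXL2C134W + FOXO1 against Vectors (-0.05 with transcript length offsets, -0.05 to 0.06 without a library), and, for FOXL2C134W + FOXO1 against FOXL2C134W, DDIT4 (0.0 with at least 10 counts in every sample, -0.01 with gene length offsets, with and without the block, and -0.04 to 0.06 without a library), CHAC1 (0.0 with transcript length offsets, -0.12 to 0.11), TRIB3 (-0.11 to 0.03), ATF4 (-0.06 to 0.0) and DDIT3 (-0.09 to 0.01). The others were DDIT3 in FOXL2WT against Vectors (-0.04 to 0.09), PPP1R15A in FOXL2C134W against Vectors (-0.09 to 0.01), ATF3 (-0.09 to 0.01), PPP1R15A (-0.09 to 0.0) and ATF5 (-0.08 to 0.02) in FOXL2WT + FOXO1 against Vectors, CEBPB between the conditions with FOXO1 (-0.02 to 0.19), and in the interaction ATF4 (0.0 with at least 1 count in any sample, 0.02 with transcript length offsets, -0.03 to 0.02) and PPP1R15A (-0.05 to 0.05).

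With a replicate block DDIT3 lost its calls in FOXL2C134W against FOXL2WT (-0.26, adjusted p = 0.058) and in FOXL2C134W + FOXO1 against Vectors (-0.27, 0.0576), leaving 6 and 4 members called, and no other member call changed. The labels do not say whether the letters mark a pairing. Of 15 libraries, 5 were closest to their own letter, which cannot decide whether the letters were paired by design. Counts over all genes that moved by more than 1.5 times were, with at least 1 count in any sample, 1345 for FOXL2WT against Vectors (842 as reported), 954 for FOXL2WT + FOXO1 against Vectors (524), 260 for FOXL2WT + FOXO1 against FOXL2WT (7), 463 for FOXL2C134W + FOXO1 against FOXL2C134W (99), 446 between the conditions with FOXO1 (20), 551 for the interaction (192) and 3515 for any difference (2268). With transcript length offsets they were 456 for FOXL2WT, 934 for FOXL2C134W (2041) and 719 for FOXL2C134W + FOXO1 (1294) against Vectors, 707 for FOXL2C134W against FOXL2WT (1560), and 62, 56, 63 and 113 for the 4 comparisons that test FOXO1 or hold it on both sides. For the latter DESeq2 gave 63, 215, 141 and 365. At least 10 counts in every sample gave 13, 170 and 32 for the first 3 of them, and the compared groups alone 14, 32 and 9, and 1690 for FOXL2WT against Vectors. Gene length offsets gave 26 and 48 for FOXL2WT + FOXO1 against FOXL2WT and between the conditions with FOXO1, and 22 and 40 with the replicate block. The part of these calls that were higher moved as well. It was 2 of 7, 1 of 99, 5 of 20 and 19 of 192 as reported, 41 of 62, 15 of 56, 32 of 63 and 27 of 113 with transcript length offsets, and 25 of 63 and 85 of 141 in DESeq2 for FOXL2WT + FOXO1 against FOXL2WT and between the conditions with FOXO1. Leaving out 1 library gave 305 to 662 genes for FOXL2WT, 1275 to 2126 for FOXL2C134W, 215 to 412 for FOXL2WT + FOXO1 and 764 to 1122 for FOXL2C134W + FOXO1 against Vectors, 772 to 2120 for FOXL2C134W against FOXL2WT, and 2 to 7, 5 to 355, 7 to 20 and 45 to 423 for the 4 comparisons with FOXO1.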
